A study of Mus musculus with 12 samples.

Results

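The genes that make and sense leukotrienes (LTs) were followed through RNA-seq libraries of injured mouse brain. The set held 10 genes: Pla2g4a, Alox5, Alox5ap, Lta4h, Ltc4s, Dpep2, Cysltr1, Cysltr2, Ltb4r1 and Ltb4r2. They were chosen by their place in the pathway, with earlier results of these data known. Each symbol matched an Ensembl identifier in both count tables, of 35697 genes listed for sham and traumatic brain injury (TBI) and 55637 listed for the zileuton experiment. The study asked how arachidonic acid (AA) metabolism responds to TBI and what inhibition of 5-lipoxygenase (5-LOX) changes, and 4 of the 10 genes (Alox5, Alox5ap, Ltc4s and Pla2g4a) are among those it had picked from these sham and TBI libraries.

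All animals were adult male wild-type C57BL/6J mice, with 3 libraries in each of 4 groups. In 2018 sham mice, which had the surgery but no blow, were compared with mice 7 days after controlled cortical impact (TBI). In 2022 injured mice carrying only the TBI label (TBI control, which the study's text calls vehicle) were compared with injured mice given zileuton, an inhibitor of the 5-LOX enzyme, by intraperitoneal injection in corn oil at 10 mg/kg per day. The library names of the zileuton mice give 7 days, whereas their source labels give 7, 8 and 9 days. RNA came from bulk brain tissue, taken around the contusion in injured mice, so fewer cells of a type and less RNA per cell cannot be told apart in any of the values that follow. Each year holds 1 comparison and its own kind of table, and no group was tested against one of the other year.

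Leukotrienes are lipid signals made mainly by myeloid cells. Cytosolic phospholipase A2 (Pla2g4a) frees AA from membranes, and 5-LOX (Alox5) with its activating protein FLAP (Alox5ap) turns AA into the unstable intermediate LTA4. LTA4 hydrolase (Lta4h) makes LTB4, a chemoattractant read by the receptors BLT1 (Ltb4r1) and BLT2 (Ltb4r2), and LTC4 synthase (Ltc4s) joins LTA4 to glutathione to give LTC4. LTC4 is trimmed to LTD4 and then, by dipeptidases such as Dpep2, to LTE4, and these cysteinyl LTs act on the receptors CysLT1 (Cysltr1) and CysLT2 (Cysltr2).

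After TBI 7 of the 10 genes rose, among them those for AA release, the 5-LOX step, LTC4 synthesis and both cysteinyl LT receptors, with fold changes from 2.56 for Cysltr2 to 5.38 for Cysltr1. Lta4h, at the step to LTB4, differed by 1.07-fold and did not pass the test, Ltb4r2 did not pass it either, and Dpep2 had too few counts to be tested. No gene of the set fell. The 7 genes are 7 of the 9 that entered edgeR's quasi-likelihood test with Benjamini-Hochberg adjustment over 19536 genes, and each rose at least 2-fold at an adjusted p-value under 0.05, as did 8.73% of all genes tested. An adjusted p-value under 0.05 in either direction was reached by 28% of all genes, and 16.8% were called higher. In 8 of the 9 genes, Ltb4r2 being the exception, every TBI library exceeded every sham library, as in 24.6% of all genes. The median log2 fold change was 1.63 over the 9 genes and 0.02 over all genes. Cysltr2 and Ltb4r1 were low in sham libraries and passed the filter on low counts through their TBI libraries. The calls of both genes were lost in most fits that left out 1 library. Because the set was chosen with earlier results of these data known, its values beside those of all genes are a description. After zileuton none of the 8 genes tested passed the threshold, and neither did any of the 17363 genes tested (0%).

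**Figure D1:**
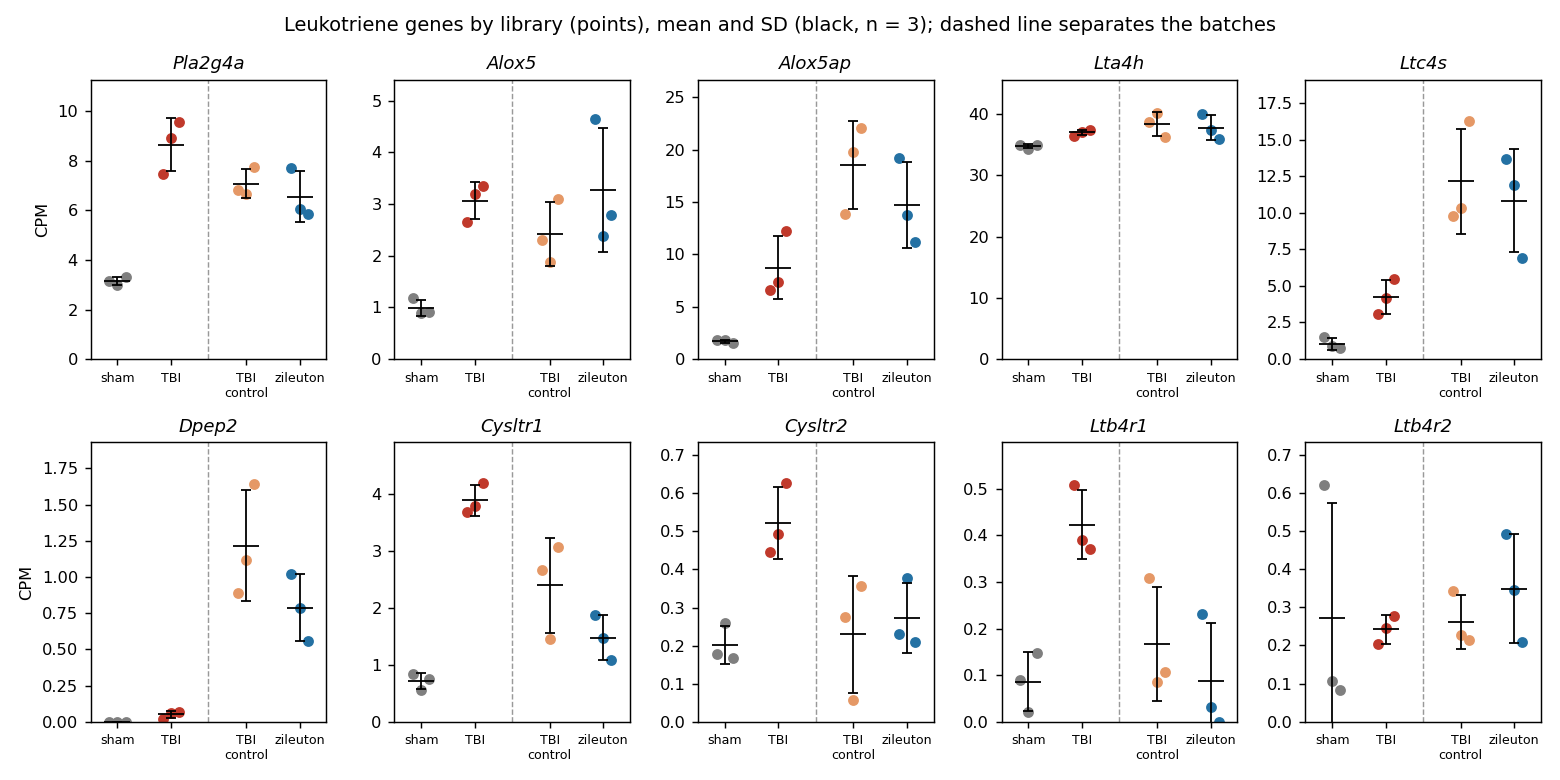
Each panel plots 1 gene, with CPM (counts scaled to 1000000 per library) from 0 on the vertical axis and the 4 groups on the horizontal axis. Points are libraries, black bars are the mean and SD of 3 libraries (bars that would pass 0 end at the axis), and the dashed line separates 2018 from 2022, whose tables were made separately. Sham and TBI libraries are apart in Pla2g4a, Alox5, Alox5ap, Ltc4s, Cysltr1, Cysltr2 and Ltb4r1, while Lta4h differs little, and TBI control and zileuton libraries overlap in all 10 genes.

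Promoter sequences are shown for 3 enzymes that rose together after TBI (Pla2g4a, Alox5 and Ltc4s) and for Lta4h, which did not pass the test. They are the 250 bases before the gene start in RefSeq on GRCm38.p6, written 5′ to 3′ on the strand of the gene, with matches to GAGGAA (a core recognised by myeloid ETS factors such as PU.1) and GGGCGG (the core bound by Sp1), on either strand, in capitals.
Pla2g4a, chr1:149961291-149961540, minus strand: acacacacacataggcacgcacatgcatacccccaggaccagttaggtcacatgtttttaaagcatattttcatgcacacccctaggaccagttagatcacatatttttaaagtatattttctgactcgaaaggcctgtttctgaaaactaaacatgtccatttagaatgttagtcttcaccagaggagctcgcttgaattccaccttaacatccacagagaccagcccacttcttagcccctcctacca
Alox5, chr6:116461179-116461428, minus strand: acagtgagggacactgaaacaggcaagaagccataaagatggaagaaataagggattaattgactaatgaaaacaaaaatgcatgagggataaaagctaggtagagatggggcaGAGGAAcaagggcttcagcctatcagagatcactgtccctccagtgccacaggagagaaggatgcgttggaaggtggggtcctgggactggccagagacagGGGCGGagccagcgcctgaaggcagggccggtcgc
Ltc4s, chr11:50238533-50238782, minus strand: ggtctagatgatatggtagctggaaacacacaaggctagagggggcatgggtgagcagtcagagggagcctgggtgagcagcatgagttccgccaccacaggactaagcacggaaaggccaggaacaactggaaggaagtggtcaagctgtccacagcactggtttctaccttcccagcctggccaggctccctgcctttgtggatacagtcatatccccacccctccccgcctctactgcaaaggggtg
Lta4h, chr10:93453146-93453395, plus strand: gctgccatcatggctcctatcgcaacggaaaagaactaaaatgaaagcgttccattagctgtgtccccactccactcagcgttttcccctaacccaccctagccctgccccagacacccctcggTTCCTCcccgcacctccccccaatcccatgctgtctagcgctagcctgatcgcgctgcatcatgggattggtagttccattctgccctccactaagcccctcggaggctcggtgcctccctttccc

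Alox5 held 1 match to GAGGAA, 136 bases before its start, and 1 to GGGCGG, 35 bases before it, and these do not overlap. Lta4h held 1 match to GAGGAA, read on the opposite strand as TTCCTC, and the windows of Pla2g4a and Ltc4s held neither motif. Promoters were found for 6 of the 10 genes, the others being Cysltr2 and Ltb4r1. GAGGAA was present in 3 of the 6 (Alox5, Lta4h and Ltb4r1) and in 23.1% of 27025 promoters, and GGGCGG in 2 of the 6 (Alox5 and Ltb4r1) and in 32.9%. Of 3 further motifs searched on both strands, a core of the NF-κB motif was found in Alox5 and Lta4h (45.4% of all promoters), and neither TGANTCA (6.87%) nor TATAAA (13%) was found in these 6 windows. A match describes the letters only.

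Pla2g4a (ENSMUSG00000056220), which supplies the AA, had 142, 139 and 157 counts in the sham libraries and 368, 434 and 413 in the TBI libraries. The groups did not overlap, and the libraries within each group differed little. The change was 2.74-fold (95% interval 2.13 to 3.54), from 3.15 ± 0.15 to 8.66 ± 1.08 CPM (SD, n = 3).

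RNA of both genes of the 5-LOX step rose. Alox5 (ENSMUSG00000025701) had 53, 41 and 43 counts in sham libraries and 131, 156 and 144 after TBI, with no overlap. Its log2 fold change was 1.63 (SE 0.240, adjusted p = 0.00138 from edgeR), a 3.10-fold change. Alox5ap (ENSMUSG00000060063), whose protein presents AA to 5-LOX, had 80, 83 and 74 counts in sham libraries and 326, 358 and 526 after TBI. All TBI libraries were at least several times above all sham libraries, and TBI replicate 3 stood highest. Alox5ap rose from 1.71 ± 0.132 to 8.73 ± 3.04 CPM (SD, n = 3), a 5.10-fold change (95% interval 3.39 to 7.66, adjusted p = 0.000276 from edgeR). Per length, the FPKM of Alox5ap was 4.36, 5.85 and 4.98 times that of Alox5 in sham libraries and 7.20, 6.64 and 10.6 times after TBI, a ratio chosen after the values were seen and given with no test. The annotation places an antisense gene, Gm19719, across Alox5ap, which had 24 to 57 counts in sham libraries and 27 to 36 after TBI. Whether counting used the strand is not given in the sources used here, so reads of the pair cannot be told apart.

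The enzymes that use LTA4 differed from each other. Lta4h (ENSMUSG00000015889) had 1574, 1590 and 1658 counts in sham libraries and 1796, 1805 and 1614 in injured libraries. Its mean was 34.7 ± 0.315 CPM in sham and 37.0 ± 0.484 CPM in TBI mice (SD, n = 3). On the CPM scale the groups did not overlap, every TBI library lying just above every sham library. The difference was 1.07-fold, with a 95% interval from 0.953 to 1.19 (adjusted p = 0.380 from edgeR). Ltc4s (ENSMUSG00000020377) had 69, 40 and 35 counts in sham libraries and 152, 204 and 235 after TBI. The groups did not overlap, and sham replicate 1 lay well above the other two sham libraries. Ltc4s rose 4.06-fold (95% interval 2.38 to 6.91, adjusted p = 0.00264 from edgeR). The FPKM of Ltc4s was 0.264, 0.151 and 0.127 times that of Lta4h in sham libraries and 0.509, 0.680 and 0.876 times after TBI. In this ratio too, which was picked after the values were seen and has no test, the groups did not overlap. In an equal-variance two-sample test on FPKM, adjusted over all genes, the calls of Ltc4s (adjusted p = 0.1002) and Alox5ap (adjusted p = 0.116) were lost and Lta4h, with a log2 fold change of 0.14 on that scale, passed (adjusted p = 0.0490), while with trends in length and GC content removed the log2 fold change of Lta4h was -0.15. An antisense gene across Ltc4s, Gm26542, had 10 to 12 counts in sham libraries and 16 to 25 after TBI.

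Dpep2 (ENSMUSG00000053687) was at the limit of detection in the 2018 tables. No sham library held a count, and the TBI libraries held 1, 3 and 3 counts, which is within what a count of 0 allows (3 counts, covering counting error only), so no fold is given. In the 2022 tables the same gene held 16 to 46 counts in every library. The annotation has a second gene named Dpep2 (ENSMUSG00000115067) across it on the same strand. That gene was not listed in 2018 and held 0 counts in every library of 2022. On the opposite strand the annotation has Dus2, with 372 to 543 counts in the libraries of 2018. Whether these overlaps bear on the difference between the years was not tested.

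Both cysteinyl LT receptors rose. Cysltr1 (ENSMUSG00000052821), the receptor with the higher affinity for LTD4, had 38, 26 and 36 counts in sham libraries and 181, 185 and 181 after TBI. The TBI libraries were nearly equal and lay far above the sham libraries. CPM went from 0.721 ± 0.144 to 3.89 ± 0.274 (SD, n = 3), a 5.38-fold rise (95% interval 3.68 to 7.88, adjusted p = 0.000156 from edgeR). Cysltr2 (ENSMUSG00000033470) had 8, 12 and 8 counts in sham libraries and 22, 24 and 27 after TBI, without overlap. Its 2.56-fold rise had a 95% interval from 1.31 to 5.02 (adjusted p = 0.0433 from edgeR). That call was lost when any 1 of the 6 libraries was left out (adjusted p from 0.0692 to 0.144) and in DESeq2 (adjusted p = 0.130).

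The LTB4 receptors were near the floor of the measurement. Ltb4r1 (ENSMUSG00000046908), which encodes the high-affinity receptor BLT1 of leukocytes, had 4, 1 and 7 counts in sham libraries and 25, 19 and 16 after TBI. The groups did not overlap, and the sham libraries varied widely. The change was 4.80-fold (95% interval 1.83 to 12.6, adjusted p = 0.0242 from edgeR). The call was lost without any 1 of 5 of the 6 libraries (adjusted p from 0.0501 to 0.0825) and held without sham replicate 3, where the log2 fold change moved from 2.26 to 2.87. Over the 6 libraries left out in turn it ran from 1.79 to 2.87. Ltb4r2 (ENSMUSG00000040432), the low-affinity receptor BLT2, had 28, 5 and 4 counts in sham libraries and 10, 12 and 12 after TBI. Sham replicate 1 lay above every TBI library and the other two sham libraries below them. The log2 fold change was -0.15 (SE 0.753, adjusted p = 0.905 from edgeR), and without sham replicate 1 it was 1.30 (adjusted p = 0.208).

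**Figure D2:**
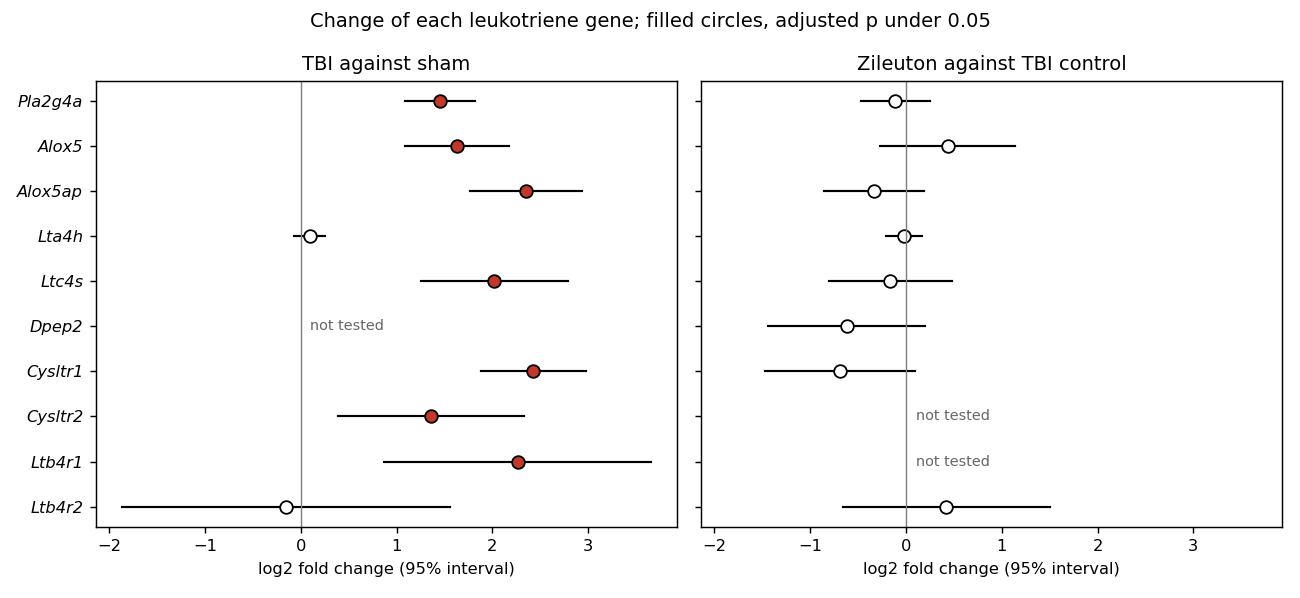
The horizontal axis gives the log2 fold change of each gene with its 95% interval, for TBI against sham on the left and zileuton against TBI control on the right. Filled circles have an adjusted p-value under 0.05. On the left 7 genes lie above 1 and Lta4h lies at 0.09 with a narrow interval, and on the right every interval includes 0.

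Levels were compared between genes per length. In sham tissue Lta4h led with 5.59 ± 0.0444 FPKM (SD, n = 3), followed by Alox5ap (1.18 ± 0.0883) and Ltc4s (1.01 ± 0.407), whose libraries overlapped. Pla2g4a (0.484 ± 0.0234) and Alox5 (0.236 ± 0.0375) came next, each clear of its neighbours. Cysltr1 had 0.138 ± 0.0270 FPKM, with Ltb4r2, Cysltr2 and Ltb4r1 at 0.0605 to 0.0715 in overlapping ranges. After TBI Alox5ap (6.24 ± 2.10 FPKM) and Lta4h (6.17 ± 0.130) overlapped at the top. Alox5ap was below Lta4h in every sham library and in TBI replicates 1 and 2 (4.72 against 6.05 and 5.37 against 6.30 FPKM), and it was above Lta4h in TBI replicate 3 alone (8.63 against 6.16), which raised its mean. Ltc4s (4.26 ± 1.16) and Pla2g4a (1.38 ± 0.172) followed, and Cysltr1 (0.770 ± 0.0485) and Alox5 (0.761 ± 0.0913) could not be ordered. Ltb4r1, Cysltr2 and Ltb4r2 had 0.309 ± 0.0529, 0.185 ± 0.0314 and 0.0665 ± 0.0102 FPKM. In the TPM of the TBI control mice of 2022, Ltc4s (49.2 ± 12.8), Alox5ap (44.6 ± 8.42) and Lta4h (36.9 ± 2.75) overlapped at the top, and Alox5 had 1.95 ± 0.385 TPM. In both tables of injured tissue 5-LOX itself had far less RNA per length than its helper FLAP.

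The set was placed beside markers of myeloid cells. The list of 10 microglia and macrophage markers (Csf1r, Aif1, Itgam, Fcgr3, C1qa, C1qb, C1qc, Tyrobp, Ctss and Laptm5) rose in all 10 members, where 16.8% of all genes were called higher, with a median log2 fold change of 3.04. Its summed level was 349 to 418 CPM in sham libraries and 2241 to 3551 CPM after TBI, and none of its markers was at 0. A gene that rose less than this sum, or did not change, falls when divided by it. The share of all genes that fall in this way was not counted, so the ratios are a description. Divided by that sum, Lta4h fell to 0.15 of its sham value, Pla2g4a to 0.385, Alox5 to 0.439, Cysltr2 to 0.368, Ltc4s to 0.587 and Alox5ap to 0.695, and in these 6 genes every TBI library lay below every sham library. Ltb4r2 was at 0.190 of its sham value, also without overlap. Cysltr1 was at 0.771 and Ltb4r1 at 0.900 of the sham value, with overlapping libraries. A two-sided exact permutation test of 3 against 3 cannot give less than p = 0.1, which these 7 genes without overlap had (0.129 adjusted over the 9 genes). Cysltr1 had p = 0.3 and Ltb4r1 p = 1 in the same exact test.

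**Figure D3:**
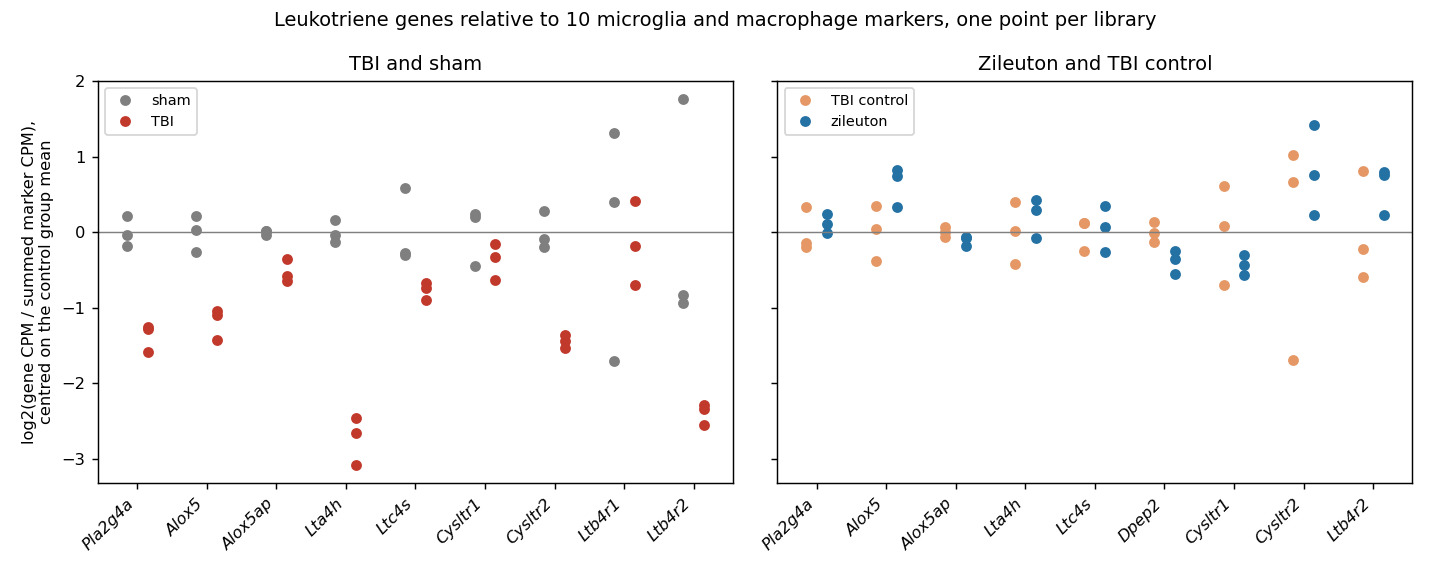
Each point is a library, and the vertical axis is the log2 of the gene's CPM divided by the summed CPM of 10 microglia and macrophage markers, centred on the mean of the control group. After TBI (left) the points of Lta4h lie lowest, near -2.74 on average, and those of Cysltr1 and Ltb4r1 overlap the sham points. With zileuton (right) the averages run from -0.43 for Cysltr1 to 0.80 for Cysltr2, a gene of low counts, with Alox5 at 0.64, Ltb4r2 at 0.60 and Dpep2 at -0.39.

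The direction of these ratios depended on the reference. Against homeostatic microglia markers (such as Cx3cr1 and Olfml3), of which 9 of 10 rose and whose sum went from 241 to 278 CPM in sham libraries to 656 to 847 after TBI, the log2 ratio rose by 0.98 for Cysltr1, 0.83 for Alox5ap and 0.59 for Ltc4s. On the same reference it was 0.17 for Alox5, -0.02 for Pla2g4a and -1.38 for Lta4h. Monocyte markers rose in 9 of 10 members, led by Lyz2, and their sum went from 22.1 to 25.1 CPM in sham libraries to 607 to 1339 CPM after TBI. After TBI that sum was mostly Lyz2, at 553 to 1231 CPM, while Ccr2 averaged 5.19 CPM and Ly6c2 3.47 CPM. Neutrophil markers rose in 6 of the 6 tested and summed to 4.34 to 5.35 CPM in sham libraries and 47.2 to 100.004 CPM after TBI, led by Csf3r, S100a9 and S100a8, while the neutrophil granule and surface genes Ly6g, Camp, Mpo and Elane held 0 to 2 counts in sham libraries and 0 to 12 after TBI. Of that sum Csf3r alone held 3.74 to 3.95 CPM in sham libraries and 30.7 to 36.9 CPM after TBI. Mast cell, basophil and eosinophil markers rose in 3 of the 3 tested and summed to 4.27 to 12.1 CPM after TBI. The others of the 10 neutrophil and 11 mast cell, basophil and eosinophil markers had too few counts to be tested. Markers low in sham libraries, such as Cxcr2 and Retnlg, could pass the filter on low counts only through their TBI libraries. The shares of tested markers that rose are therefore a description. In the other lists of the tissue, markers called higher and lower after TBI were 0 and 4 of 10 for neurons, 6 and 0 of 8 for astrocytes, 4 and 0 of 8 for oligodendrocytes, 6 and 0 of 8 for endothelial cells, 5 and 0 of 5 for fibroblasts and meninges, 2 and 0 of the 3 tested for T and NK cells, 1 and 0 of the 4 tested for B cells, and 0 and 3 of 5 for red blood cells, where 16.8% of all genes were called higher and 11.2% lower. The part of these cell types in the rise of the LT genes was not tested.

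Within the injured groups most LT genes were highest in the library that was highest in myeloid markers. TBI replicate 3 had the highest summed microglia and macrophage markers, and 8 of the 9 tested genes were highest there, Ltb4r1 being the exception, against 37.7% of all genes tested. Among sham libraries, where the sums lay close together, 2 of the 9 (Alox5ap and Cysltr2) were highest in the library with the highest sum, against 34.3% of all genes. In 2022, 6 of the 8 tested genes were highest in the TBI control library with the highest sum and 8 of 8 in such a zileuton library, against 36.7% of all genes in either group. These counts were taken after the values were seen, and 3 libraries give no test.

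Around the LT genes, a list of 10 for LTB4 inactivation held Ptgr1 and Cyp4f family genes, whose action on LTB4 was not measured. Of the 7 tested 6 rose and none was called lower, where 16.8% of all genes were called higher and 11.2% lower. Cyp4f18, a cytochrome P450 that hydroxylates LTB4 in mouse myeloid cells, had 5, 10 and 10 counts in sham libraries and 164, 288 and 299 after TBI. Every TBI library exceeded every sham library many times over, and the rise was 29.6-fold (95% interval 15.9 to 55, adjusted p = 4.98e-05 from edgeR). Ptgr1, the LTB4 12-hydroxydehydrogenase, rose 5.17-fold, and Cyp4f16 (2.20-fold), Cyp4f17 (2.08-fold), Cyp4f14 (1.99-fold) and Cyp4f13 (1.71-fold) rose less. Cyp4f15, the highest of the list in sham tissue, had a log2 fold change of -0.40 (adjusted p = 0.0842 from edgeR). The remaining 3, Cyp4f37, Cyp4f39 and Cyp4f40, held 0 to 4 counts per library and were not tested.

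Genes that form, trim and export LTC4 went both ways, 2 up and 1 down of the 7 tested of 8, where 16.8% of all genes were called higher and 11.2% lower, and so small a count is not set apart from these shares. Ggt5, the γ-glutamyl transferase that turns LTC4 into LTD4, rose 2.27-fold (64, 99 and 110 counts in sham libraries and 218, 234 and 177 after TBI). The exporter Abcc4 rose 1.42-fold. Mgst3, a microsomal glutathione transferase and the most abundant gene of the list, fell to 0.784 of its sham level (adjusted p = 0.0464 from edgeR). Mgst2, which can also make LTC4, had 0, 6 and 2 counts in sham libraries and 13, 13 and 21 after TBI (adjusted p = 0.0501), and the dipeptidase Dpep1 had 16, 14 and 12 against 28, 40 and 28 (adjusted p = 0.0502). Both stood just outside the threshold in edgeR. The exporter Abcc1 differed by 1.19-fold (adjusted p = 0.0968) and Ggt1 by 1.09-fold, and Dpep3 was at 0 in every library.

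Of the other receptors, 3 of the 3 tested of a list of 4 rose, where 16.8% of all genes were called higher. Fpr1 and Fpr2 were low in sham libraries and passed the filter on low counts through their TBI libraries, so this count is a description. Gpr17, a receptor of oligodendrocyte precursors related to the cysteinyl LT receptors, rose 1.95-fold, from 53.0 ± 4.22 to 103 ± 16.8 CPM (SD, n = 3). Per length its level of 20.2 FPKM after TBI was far above that of any LT receptor. The formyl peptide receptors rose as well, Fpr1 from 4, 10 and 14 counts to 34, 19 and 42, and Fpr2, which also binds lipoxin A4 and annexin A1, from 0, 0 and 2 counts to 31, 18 and 36. No sham library exceeded any TBI library in either gene. Oxgr1, reported to bind LTE4, held 2 to 13 counts and was not tested.

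Partners of 5-LOX and lipoxin-forming lipoxygenases rose in 3 of the 4 tested of 5, where 16.8% of all genes were called higher. Cotl1, a coactosin-like protein that binds 5-LOX, rose 3.12-fold (adjusted p = 1.73e-05 from edgeR), and Mapkapk2, a kinase that phosphorylates it, rose 1.57-fold. Anxa1, whose protein annexin A1 restrains phospholipase A2, rose 6.77-fold, with 653, 265 and 1164 counts after TBI that spread more than those of any LT gene that rose. Alox12 had a log2 fold change of 0.34 (adjusted p = 0.555), and Alox15 held 0 to 6 counts. Genes that release or re-esterify AA went both ways, 2 up and 2 down of 7, a count that is likewise not set apart from the 16.8% and 11.2% of all genes. Lpcat2 (3.65-fold) and Lpcat3 (1.90-fold), which put fatty acids back into phospholipids, rose. Mboat7, which puts AA into phosphatidylinositol, fell to 0.739 of its sham level, and the phospholipase relative Pla2g4e fell to 0.541. Pla2g4b, Pla2g4c and Acsl4 did not pass the test (adjusted p = 0.617, 0.161 and 0.108 from edgeR).

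**Figure D4:**
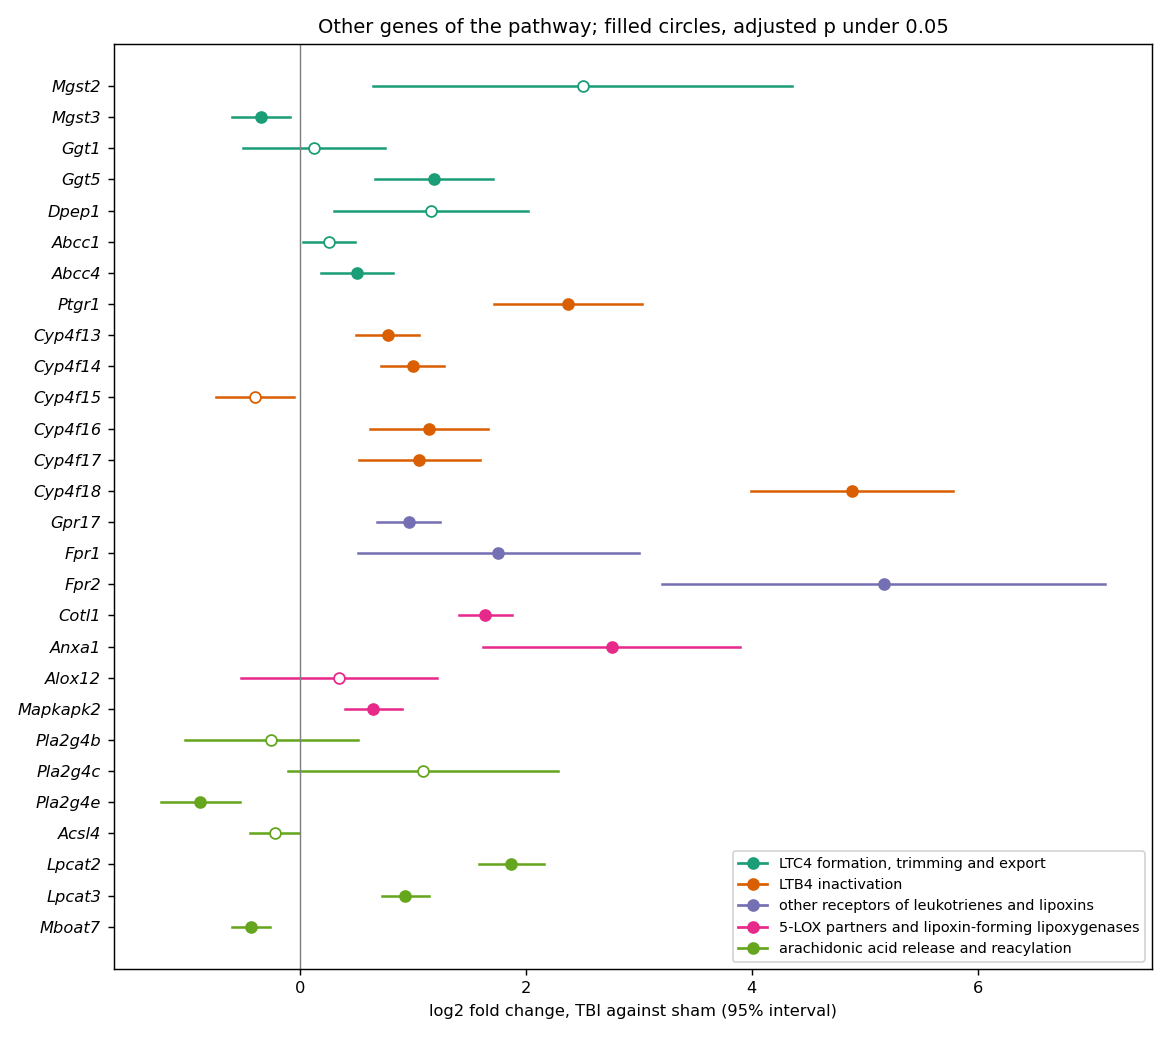
Other genes of the pathway that were tested are listed on the vertical axis, coloured by list, and the horizontal axis is the log2 fold change of TBI against sham with its 95% interval. Filled circles have an adjusted p-value under 0.05. Cyp4f18 (4.89) and Fpr2 (5.17) lie farthest to the right, and the filled circles left of 0 are Mgst3, Pla2g4e and Mboat7.

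Zileuton acts on the 5-LOX protein, and the 2022 comparison shows whether RNA of the pathway differed in treated mice. Of the 10 LT genes 8 were tested, and none passed the adjusted threshold in edgeR, none had an unadjusted p-value under 0.05 (6.83% of all genes, 1186 of 17363, did), and DESeq2 called none at either threshold. In all 8 the libraries of the groups overlapped, where 6.51% of all genes lay higher and 7.04% lower in zileuton mice without overlap. The largest differences were lower Cysltr1 and Dpep2. Cysltr1 had 78.0, 51 and 86 estimated counts in TBI control libraries and 57, 47 and 31 in zileuton libraries, with overlap (log2 fold change -0.69, 95% interval -1.47 to 0.09, adjusted p = 0.713 from edgeR). Dpep2 had 26, 39 and 46 against 31, 25.0 and 16, also with overlap. Its log2 fold change was -0.62 (95% interval -1.44 to 0.20).

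Alox5, the target itself, had 67, 66 and 87 estimated counts in TBI control libraries and 141, 76 and 80 with zileuton. On counts the high value came from 1 zileuton library, and the other two lay within the range of the controls. In the deposited TPM it was at 1.93, 1.57 and 2.34 in TBI control and 4.30, 1.72 and 3.57 in zileuton libraries, so 2 of the 3 zileuton libraries exceeded every control and the groups still overlapped. On counts the log2 fold change was 0.43 (95% interval -0.27 to 1.14, adjusted p = 0.756 from edgeR), and 0.10 without the library with 141 counts, while on TPM it was 0.72 in the equal-variance two-sample test, which it did not pass either. Alox5ap had 404, 690 and 618 against 584, 438 and 321, with overlap and a log2 fold change of -0.33 (95% interval -0.86 to 0.19). Intervals were narrower for Pla2g4a (-0.47 to 0.25) and narrowest for Lta4h, with 1129, 1408 and 1016 against 1218, 1192 and 1031 (-0.21 to 0.17 on the log2 scale). Those for Ltc4s (-0.80 to 0.48) and Ltb4r2 (-0.66 to 1.50) leave room for larger differences. Cysltr2 (2 to 12 estimated counts per library) and Ltb4r1 (0 to 9) were below the filter on low counts and were not tested.

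The summed microglia and macrophage markers were 1984 to 3291 CPM in TBI control libraries and 1815 to 2874 CPM with zileuton. Their median log2 fold change was -0.26, and no marker passed the adjusted threshold. At an unadjusted p-value under 0.05 in edgeR 2 of 10 were lower, where 3.9% of all genes were, and so small a count is not set apart from that share. Relative to that sum Alox5 was 1.55-fold higher with zileuton (p = 0.2 in the two-sided exact permutation test). Cysltr2 (1.74-fold, p = 0.6 in the exact test) and Ltb4r2 (1.51-fold, p = 0.4), both of low counts, were higher too, with overlap. Alox5ap stood at 0.929 and Dpep2 at 0.765 of the control value, each without overlap between libraries (p = 0.1 in the exact test, the smallest it can give, and 0.45 adjusted over 9 genes). For Alox5ap the groups nearly touched, with log2 ratios of -7.222 in the lowest control and -7.225 in the highest zileuton library. The share of all genes without overlap in this ratio was not counted. Cysltr1 stood at 0.742 (p = 0.4 in the exact test). Monocyte markers had a median log2 fold change of -0.59, also with none past the adjusted threshold. Of these 10 markers 2 were lower at an unadjusted p-value under 0.05, again beside 3.9% of all genes. Their part in the values of the LT genes was not tested.

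In the 5 lists of neighbouring pathway genes none of the 24 tested passed the adjusted threshold after zileuton in edgeR. Before adjustment 1 gene had a p-value under 0.05, a count too small to be set apart from the 6.83% of all genes. That gene, given as a description, was Abcc1, which exports LTC4 and had 25.0 ± 0.985 CPM in TBI control libraries and 29.9 ± 0.655 CPM with zileuton (SD, n = 3). The groups did not overlap (log2 fold change 0.26, 95% interval 0.08 to 0.45, adjusted p = 0.713 from edgeR). Cyp4f18, the gene of the LTB4 inactivation list with the steepest rise after TBI, had 66, 179 and 192 estimated counts against 164, 81 and 49, which overlap.

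The genes whose pattern over the 12 libraries was most like that of Alox5, among 16516 tested in both comparisons, were Rassf4, Gm20632, Adamtsl3, Galnt4 and Ltbr. Their root mean square difference in log2 CPM, each year centred on its own mean, was 0.178 to 0.203. Pla2g4a ranked 49th by this measure, Ltc4s 739th and Alox5ap 1490th. None of the 5 was among the first 5 when FPKM and TPM were used in place of CPM.

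The libraries held 42929862 to 48684674 counts in 2018 and 27845562 to 35453257 estimated counts in 2022. Of the counts from 1 to 20, 62.3% to 64.4% were even in each 2018 library against 40.1% to 41.9% in 2022, so a count of 2018 was not taken as a separate molecule. Summed neuronal markers, led by Camk2a, Snap25 and Syt1, were at 12376 to 12743 CPM in sham libraries and 7758 to 10542.5 CPM in TBI libraries. In 2022 they were at 7537 to 9076 CPM in TBI control libraries and 8120 to 9298 CPM in zileuton libraries.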

How the data were processed

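RNA was measured as read pairs from bulk brain tissue in 12 libraries. For 2018 the authors deposited raw counts per gene and FPKM, and for 2022 they deposited estimated counts and TPM. The submitters' processing notes name HISAT2, featureCounts, Subread, DESeq2 and GRCm39 without roles. No tool is tied to the estimated counts, and whether counting used the strand is not given in the sources used here. The plan assumed raw counts, and the estimated counts, 13% to 15.2% of which were not whole, were rounded. The 2022 columns carry numbers that match no label, so their libraries are unnumbered members of their group.

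The test of counts was the quasi-likelihood test of edgeR 4.0.16 (glmQLFit, glmQLFTest) under R 4.3.3, after filterByExpr and TMM scaling, with Benjamini-Hochberg adjustment over all genes tested and a threshold of 0.05. Nothing says whether the 3 libraries of a group share a litter or a pool, so p-values measure the spread between these libraries. Ratios to summed markers were tested by exact permutation. Limits from counts cover counting error only. Symbols came from a gene name table, overlaps from GENCODE M21 on GRCm38 and promoters from RefSeq on GRCm38.p6, with no coordinates of the authors' build used. Named were the 10 genes, genes of the pathway lists past the threshold and the highest 2 of each list, leading and absent markers, and the 5 genes most like Alox5, and others whose values frame these were added. The members and lists were chosen with earlier results of these data known. In simulated counts edgeR found 54% of genes changed 2-fold and 90% of genes changed 4-fold for sham and TBI among 19187 genes (11.1% of its calls were false), and 63% and 88% for zileuton among 17125 genes (6.8% false). Each simulation planted 200 changed genes, whereas 5479 genes were called after TBI, so these shares need not hold for that comparison. Alternatives were DESeq2 1.42.0 and its size factors, library totals, other filters, limma 3.58.1 on log2(value + 1) and log2(value + 0.1), the equal-variance two-sample test that the study's methods give, trends in length and GC removed, 2018 counts divided by 2, a replicate block and each library left out.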

Additional observations from a re-analysis of the deposited data

How the results depend on the processing

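After TBI the direction of the 7 genes that rose held under the alternatives run, and the number called was 5 to 7 in the alternatives other than limma on log2(value + 0.1) restricted to a mean of at least 0.5 FPKM, which tests fewer genes (3), and the equal-variance two-sample test on FPKM (4 of the LT genes and 1284 of all genes). Cysltr2 lost its call in 12 of 16 alternatives and Ltb4r1 in 7 of 15, and the equal-variance test also lost Alox5ap and Ltc4s and called Lta4h. The log2 fold change of Lta4h turned to -0.15 with length and GC trends removed, and that of Ltb4r2 to 0.050 with limma on log2(value + 0.1) and to 0.25 with the replicate block, and it ran from -0.61 to 1.30 as single libraries were left out. The cause was not tested. With homeostatic microglia as the reference the log2 ratios after TBI were -0.016 (Pla2g4a), 0.17 (Alox5), 0.83 (Alox5ap), -1.38 (Lta4h), 0.59 (Ltc4s), 0.98 (Cysltr1), -0.082 (Cysltr2), 1.21 (Ltb4r1) and -1.03 (Ltb4r2), and after zileuton -0.25 (Alox5ap) and -0.54 (Dpep2). Of the 5 genes most like Alox5, 0 were shared when FPKM and TPM were used.

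After zileuton 0 LT genes passed the adjusted threshold under every alternative run, and the count at an unadjusted p-value under 0.05 was 1 without a filter and 0 to 2 as single libraries were left out. Of all genes, 26 passed the adjusted threshold in DESeq2, 4 without a filter, 3 with limma on log2(value + 0.1), 3 with its mean filter and 9 in the equal-variance test, against 0 in edgeR. At an unadjusted p-value 725 genes passed with length and GC trends removed and 689 to 1909 without single libraries. Lta4h turned to 0.056 with limma on log2(value + 1), 0.057 with log2(value + 0.1), 0.057 with its mean filter, 0.057 in the equal-variance test and 0.0072 with trends removed, and ran from -0.065 to 0.017 without single libraries, and Ltc4s from -0.36 to 0.10.

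Deviations of same-numbered libraries from their group means correlated at -0.0228, -0.0944 and -0.0326 in 2018 and at -0.280, 0.0628 and -0.282 in 2022, so the numbers were not taken to pair animals. With a replicate block 5 of the LT genes were called after TBI, Cysltr2 (adjusted p = 0.0975 in edgeR) and Ltb4r1 (adjusted p = 0.0529) being lost, and 729 genes had an unadjusted p-value under 0.05 after zileuton. Low counts of the receptors limit what could be detected.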
